A study of Mus musculus with 7 samples.

Results

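The genes described here encode 49 enzymes that make, salvage, interconvert and break down purine and pyrimidine nucleotides. They were chosen by symbol, with earlier results of these data known, and all 49 were among the 24015 rows of the count table. Haematopoietic stem cells (HSCs) had been sorted from C57BL/6 mouse bone marrow as lineage-negative Sca-1+ c-Kit+ (LSK) cells that were CD150+ and CD48-. Polyadenylated RNA of these cells was then sequenced, each library being a bulk sample. There were 3 libraries of HSCs from old mice and 4 from young mice, with no other treatment or genotype in the labels, and the comparison asks how transcript levels in HSCs differ with age. No age is stated, nor is it stated that libraries came from different mice, so the p-values reflect variation among these 7 libraries, which may be technical. In bulk RNA, fewer cells of a type and less RNA per cell cannot be told apart.

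Purine synthesis builds the ring on phosphoribosyl pyrophosphate (PRPP) and ends in IMP, from which AMP and GMP are made. Salvage enzymes return free bases and nucleosides to nucleotides, while breakdown runs from nucleosides through hypoxanthine, guanine and xanthine to urate, whose last steps are catalysed by xanthine dehydrogenase, the product of Xdh. Pyrimidine synthesis ends in UMP and CTP. Ribonucleotide reductase and thymidylate synthase then supply the deoxynucleotides of DNA, and several of these enzymes are known to be made mainly in S phase, whereas most HSCs in adult marrow are quiescent.

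Xdh was the 1 gene of the group that differed between old and young HSCs past the threshold, and it rose 16.7-fold in old HSCs. Levels are given as CPM, read counts scaled to a common library size with TMM factors, and the test was the quasi-likelihood F test of edgeR with p-values adjusted over the 11506 genes tested, with a threshold of 0.05. Of the 49 genes 47 were tested. Uox, the urate oxidase gene of liver, had no count in any library, and Cda, cytidine deaminase, was counted in young 4 alone (3.62 CPM). With Xdh, 1 of 47 genes passed as higher (2.13%), where 0.235% of all tested genes did. That share rests on 1 gene, and the members were chosen with earlier results of these data known. None passed as lower, where 0.0174% of all tested genes did. At an unadjusted p under 0.05, 9 members had a negative log2 fold change (19.1%, against 4.49% of all tested genes) and 5 a positive one (10.6%, against 4.62%), and 9.12% of all tested genes did so in either direction. DESeq2 called 2 members higher (Xdh and Gda) and 5 lower (Ppat, Pfas, Umps, Rrm2 and Tyms), against 2.45% and 2.61% of the 11681 genes it adjusted (5.06% in either direction). The median log2 fold change of the 47 was -0.22, and that of all tested genes was -0.03. A negative value was found for 31 members (66.0%) and for 51.5% of all tested genes.

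**Figure D1:**
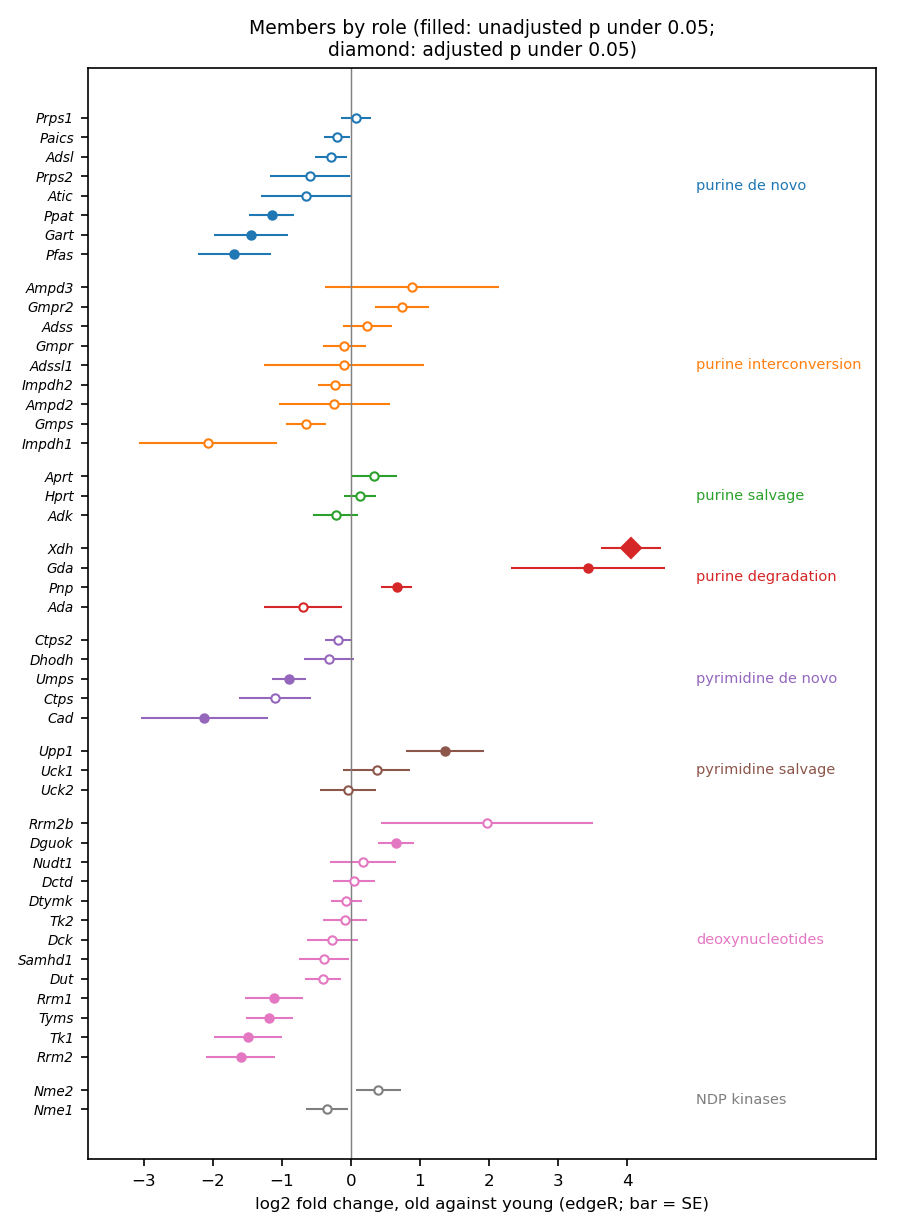
Log2 fold change of old against young HSCs for the 47 tested genes, grouped by role, with SE as bars. Filled symbols have an unadjusted p under 0.05 and the diamond (Xdh) an adjusted p under 0.05; Xdh, Gda and Pnp lie to the right of 0, and the 5 pyrimidine synthesis genes to the left.

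Among the genes of purine breakdown, the enzymes from nucleoside to urate had their 3 old libraries above all 4 young ones in Pnp, Gda and Xdh. Xdh had 155, 182 and 219 CPM in the old libraries and 6.26, 18.6, 10.9 and 8.71 CPM in the young. The lowest old library was thus well above the highest young one. Old HSCs had a mean of 185 ± 31.9 CPM (SD, n = 3) and young HSCs one of 11.1 ± 5.35 CPM (SD, n = 4). On the log2 scale the fitted difference was 4.06 ± 0.43 (SE), and the edgeR adjusted p was 0.00795. By p it ranked 6 among the tested genes, and by log2 fold change 113. The young counts behind it were 143, 408, 303 and 250 reads. The call was lost without old 1 (adjusted p = 0.0590) and without old 3 (adjusted p = 0.0784), with log2 fold changes of 4.17 and 3.92.

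Gda, guanine deaminase, turns guanine into xanthine, the substrate of the Xdh product. It had 126, 154 and 98.1 CPM in the old libraries and 0.0438, 14.4, 13.9 and 18.2 CPM in the young. Young 1 held 1 read, and the other young libraries held 315 to 523. The means were 126 ± 27.9 CPM (SD, n = 3) and 11.6 ± 7.97 CPM (SD, n = 4). The fitted log2 difference was 3.43 ± 1.11 (SE), and with an edgeR adjusted p of 0.312 Gda did not pass, although the groups did not overlap. Without young 1 it passed (adjusted p = 0.0332, log2 fold change 3.02), and DESeq2 called it with all libraries (adjusted p = 0.0340). The size of the difference varied with the method, at 4.86 with limma-voom (adjusted p = 0.193) and 4.61 with a replicate block (adjusted p = 0.784).

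Pnp, purine nucleoside phosphorylase, releases hypoxanthine and guanine from their nucleosides. It had 392, 318 and 353 CPM in the old libraries and 170.5, 286, 238 and 201 CPM in the young. The groups did not overlap, but the gap from old 2 to young 2 was narrow. The fitted log2 difference was 0.66 ± 0.23 (SE; adjusted p = 0.346). Pnp2, a near-identical neighbouring gene that could share its reads, had means of 12.1 (old) and 6.04 CPM (young). How reads common to both genes were counted is not stated, so these means do not bound the sharing. Gm49342, on the same strand, covers 18.04% of the annotated exon bases of Pnp. Ada, adenosine deaminase, had 67.7, 49.9 and 11.5 CPM in old against 53.01 to 84.5 CPM in young libraries, and old 3 stood far below the rest (adjusted p = 0.878). Pnp, Gda and Xdh were the 3 tested members with every old library above every young one (6.38%). Of all tested genes 7.55% were so, and thus the number of members was near the background.

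**Figure D2:**
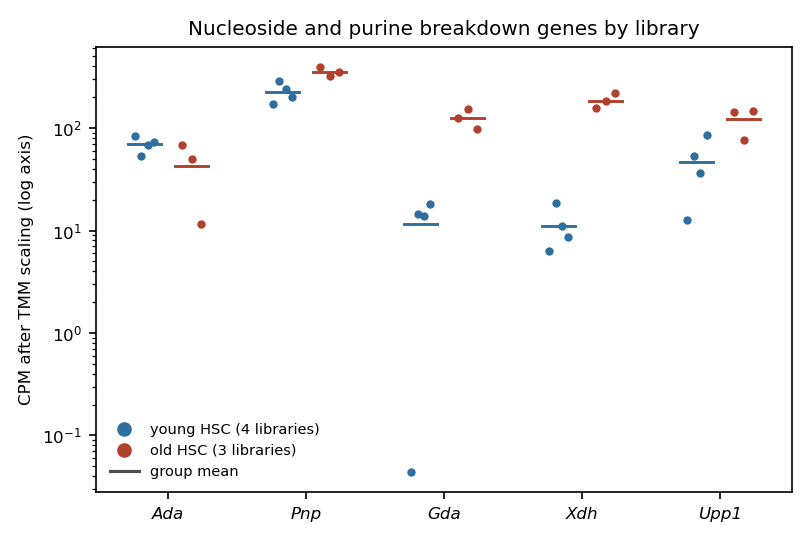
TMM-scaled CPM on a log axis for the purine breakdown genes Ada, Pnp, Gda and Xdh and the uridine phosphorylase gene Upp1; points are libraries and lines group means. The old libraries of Xdh (155 to 219 CPM) and Gda (98.1 to 154 CPM) lie above every young library, and young 1 of Gda sits at 0.0438 CPM.

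The ratios between these genes within a library, per kilobase of their longest coding transcript, were also compared. Pnp was 2.52 to 3.95 times the level of Xdh in the old libraries and 24.002 to 42.6 times in the young. The level of Gda was 0.380 to 0.716 times that of Xdh in old libraries and 0.00593 to 1.77 times in young ones, which overlap. Together the 5 breakdown genes summed to 682 to 741 CPM in old and 261 to 372 CPM in young libraries, with Pnp the largest part in each. The molybdenum cofactor, without which xanthine dehydrogenase is inactive, is made by enzymes whose genes were read beside Xdh. Of its 5 genes 4 were tested and none passed. Mocs2, a subunit of molybdopterin synthase, had 235, 168 and 210 CPM in old against 81.2 to 188 CPM in young libraries, which overlap (log2 fold change 0.71, adjusted p = 0.522). Mocos, the sulfurase that activates the enzyme, reached at most 1.27 CPM in old and 0.0348 CPM in young libraries and was too low to test.

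The 250 bases before the annotated start are shown for Gda and Pnp, the breakdown genes whose old libraries lay above the young, and for Rrm1 and Rrm2, subunits of 1 enzyme whose old libraries lay below. They are from RefSeq (GRCm38.p6, while the counts were made on mm9), written 5′ to 3′ on the gene's strand, with capitals for CCAAT boxes (CCAAT, or ATTGG on the other strand) and for TTCCCGC, a core of E2F sites. Of the 49 genes 45 had an entry; Xdh, Dhodh, Pfas and Rrm2b had none.
Gda (chr19:21472662-21472911, minus strand): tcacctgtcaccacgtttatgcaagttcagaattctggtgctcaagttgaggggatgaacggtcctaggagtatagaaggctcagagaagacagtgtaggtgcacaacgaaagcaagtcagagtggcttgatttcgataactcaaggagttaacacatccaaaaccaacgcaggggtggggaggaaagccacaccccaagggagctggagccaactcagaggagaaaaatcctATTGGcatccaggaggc
Pnp (chr14:50944053-50944302, plus strand): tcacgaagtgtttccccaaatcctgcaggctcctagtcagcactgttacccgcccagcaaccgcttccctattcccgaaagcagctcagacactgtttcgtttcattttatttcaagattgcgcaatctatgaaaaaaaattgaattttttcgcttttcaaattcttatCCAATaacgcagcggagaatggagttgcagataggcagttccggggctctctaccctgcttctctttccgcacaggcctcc
Rrm1 (chr7:102441445-102441694, plus strand): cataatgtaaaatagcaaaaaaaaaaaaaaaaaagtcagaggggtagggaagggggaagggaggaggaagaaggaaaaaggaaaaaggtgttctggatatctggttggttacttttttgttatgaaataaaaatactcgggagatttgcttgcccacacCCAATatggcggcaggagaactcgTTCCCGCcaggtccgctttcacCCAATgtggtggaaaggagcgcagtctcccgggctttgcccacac
Rrm2 (chr12:24708004-24708253, plus strand): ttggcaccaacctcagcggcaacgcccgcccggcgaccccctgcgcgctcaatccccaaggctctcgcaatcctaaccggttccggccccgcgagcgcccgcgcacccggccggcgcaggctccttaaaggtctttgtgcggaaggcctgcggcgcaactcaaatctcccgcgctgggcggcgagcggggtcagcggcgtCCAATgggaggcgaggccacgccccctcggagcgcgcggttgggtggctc

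A CCAAT box was found in all 4 of these windows, and Rrm1 held a pair. That of Gda was on the other strand at -17 to -13 from the annotated start. In the GENCODE M21 annotation, 11 bases of the Gda window, 13 of that of Rrm2 and 1 of that of Pnp lay in exons of the same gene. No CCAAT box was found in the windows of Ppat, Umps and Tyms, whose groups also did not overlap. On both strands, CCAAT was present in 33.3% of the members' promoters, 40.7% of those of tested genes and 37.5% of all genes with an entry. TTCCCGC was found in Rrm1 and Ppat, 4.44% of the members against 8.46% of tested genes and 4.38% of all genes, and TTGGCGC, the other E2F word searched, in Adss and Dtymk (4.44%, 4.18% and 2.31%). The GC box GGGCGG was in 75.6% of the members' promoters, 64.7% of tested genes and 35.4% of all genes. The E-box CACGTG, a palindrome that MYC can bind, was in Ampd3, Atic, Dtymk, Impdh2, Nme1, Paics and Tyms, 15.6% of members against 10.1% of tested genes and 6.86% of all genes. A match is a run of letters and not a measured binding site, and some words can overlap each other in GC-rich stretches.

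In purine synthesis, the 6 genes from PRPP to IMP (Ppat, Gart, Pfas, Paics, Adsl and Atic) and Prps2 had a negative log2 fold change, Prps1 had a positive one (0.08), and none of the 8 passed. Prps1 and Prps2 make PRPP itself. Ppat, amidophosphoribosyltransferase, carries out the committed step. It had 44.7, 46.5 and 49.6 CPM in the old libraries and 112.9, 70.7, 134.8 and 97.6 CPM in the young. The old libraries were within a narrow band below every young one (log2 fold change -1.15 ± 0.33, adjusted p = 0.234 in edgeR and 0.0130 in DESeq2). Pfas, which makes formylglycinamidine ribotide, had 44.4, 69.6 and 80.4 CPM in old and 396, 165, 204 and 70.4 CPM in young libraries, with young 4 inside the old range (log2 fold change -1.69 ± 0.53, adjusted p = 0.293, DESeq2 0.0346). Gart, which carries out 3 steps as a trifunctional enzyme, had 40.9, 79.7 and 73.7 CPM in old and 222, 48.5, 278 and 157 CPM in young libraries. Young 2 lay inside the old range (log2 fold change -1.44 ± 0.54, adjusted p = 0.396), and an antisense gene covers 19.7% of the exon bases of Gart.

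The groups overlapped in the other genes of the same route. Where a pair of means is given, the old mean (n = 3) comes before the young mean (n = 4), and ± is the SD. Paics, which follows Pfas and Gart, had means of 575 ± 57.6 (old) and 660.5 ± 65.2 CPM (young; log2 fold change -0.20), and Adsl, adenylosuccinate lyase, 334 ± 49.2 and 408 ± 81.9 CPM (-0.29). Atic, which closes the ring, averaged 22.8 and 35.7 CPM, and Prps1 and Prps2 291 and 276 CPM and 45.9 and 69.1 CPM. Ppat and Paics lie head to head, and their exons overlap by 272 bases on opposite strands in the GENCODE M21 annotation. Reads there cannot be assigned without strand. Per kilobase, Paics exceeded Ppat by 17.6 to 21.2 times in old libraries and by 8.43 to 12.9 times in young ones, without overlap. The 8 genes summed to 1406 to 1484 CPM in old and 1550 to 2335 CPM in young libraries, with Paics the largest part.

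**Figure D3:**
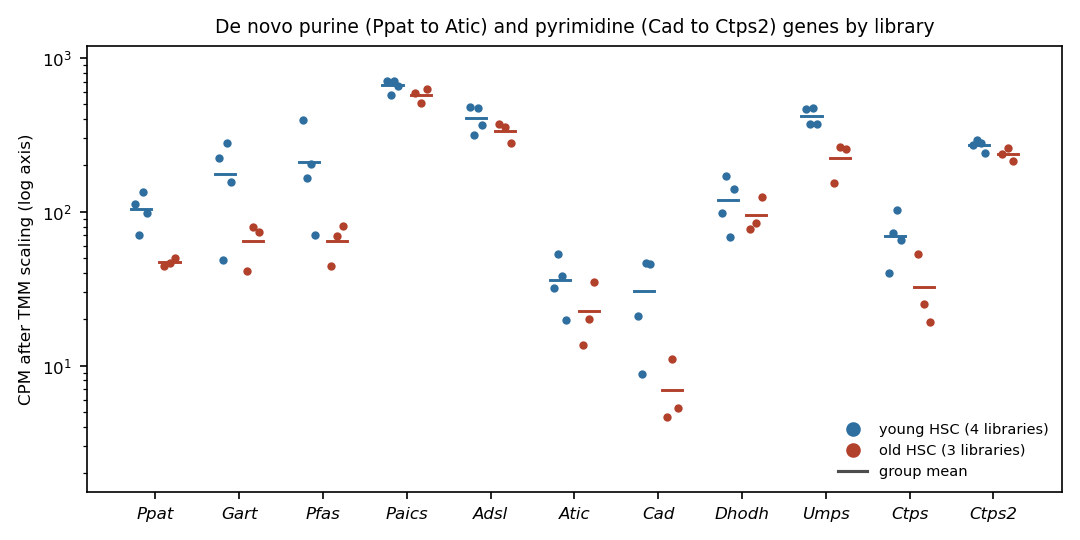
CPM after TMM scaling on a log axis for de novo purine genes (Ppat to Atic) and de novo pyrimidine genes (Cad to Ctps2); points are libraries and lines group means. The old libraries of Ppat (44.7 to 49.6 CPM) and Umps (154 to 265 CPM) lie below every young library, while those of Paics and Ctps2 overlap the young ones.

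The 9 genes that turn IMP into AMP and GMP or back held no called gene, and none had an unadjusted p under 0.05. Impdh2, the IMP dehydrogenase of the guanine branch, had means of 129 ± 9.08 (old) and 152 ± 25.1 CPM (young). Its paralogue Impdh1 was much scarcer, with 3.47, 10.6 and 6.19 CPM in old and 19.1, 28.3, 58.8 and 6.76 CPM in young libraries (log2 fold change -2.07, adjusted p = 0.605). Gmps, GMP synthetase, averaged 159 and 249 CPM (adjusted p = 0.556). Ampd3, the erythrocyte isoform of AMP deaminase, had 0.0457 CPM in young 2, which is 1 read. The remaining young libraries had 28.7 to 32.2 CPM and the old ones 22.8 to 64.7 CPM. In the same library Adssl1, adenylosuccinate synthase, had 0.228 CPM, where young 1, 3 and 4 had 34.5 to 59.9 CPM, and Ampd2 7.76 CPM, where they had 33.2 to 149 CPM. Gmpr2, a GMP reductase, had means of 170.0 (old) and 102 CPM (young; adjusted p = 0.656), but 39.2% of its annotated exon bases overlap Tinf2 on the other strand.

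None of the 3 purine salvage genes passed. Hprt, which salvages hypoxanthine and guanine, had means of 478 ± 84.9 (old) and 436 ± 100.1 CPM (young; log2 fold change 0.13). Aprt, its counterpart for adenine, averaged 260.3 ± 60.6 and 206 ± 83.4 CPM (0.34). Adk, adenosine kinase, averaged 269 ± 49.2 and 313 ± 139.9 CPM (-0.22), with 521 CPM in young 2 and 222 to 267 CPM in young 1, 3 and 4. Per kilobase, Hprt was the most abundant of the members in both groups, at 371 CPM per kilobase in old and 338 in young HSCs. Xdh moved from rank 45 of 49 in young HSCs to rank 27 in old HSCs on that scale, from 2.42 to 40.3 CPM per kilobase.

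All 5 genes of pyrimidine synthesis had a negative log2 fold change, and none passed. Umps, which carries out the last 2 steps to UMP, had 154, 265 and 255 CPM in the old libraries and 461, 374, 471 and 370.2 CPM in the young. Every old library lay below every young one (log2 fold change -0.90 ± 0.25, adjusted p = 0.213 in edgeR and 0.0112 in DESeq2); an antisense gene covers 6.11% of its exon bases. Cad, the trifunctional enzyme of the first steps, was scarce, with 4.65, 10.99 and 5.30 CPM in old and 20.9, 8.86, 46.1 and 45.5 CPM in young libraries. Young 2 lay inside the old range (log2 fold change -2.12 ± 0.92, adjusted p = 0.524). Dhodh, the mitochondrial dihydroorotate dehydrogenase, averaged 95.7 and 119 CPM with overlapping groups. Of the CTP synthases, Ctps averaged 32.6 ± 18.2 and 69.9 ± 25.7 CPM (adjusted p = 0.595) and Ctps2 237 ± 23.2 and 270.4 ± 21.6 CPM (adjusted p = 0.916). Ctps2 exceeded Ctps per kilobase in every library, by 3.57 to 8.997 times in old and 2.20 to 5.49 times in young HSCs.

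Of the pyrimidine salvage genes, Upp1, uridine phosphorylase, had 142, 76.8 and 145 CPM in the old libraries and 12.7, 53.4, 36.1 and 86.0 CPM in the young. Old 2 lay below young 4, so the groups overlapped (log2 fold change 1.37 ± 0.57, adjusted p = 0.482, and 2.003 with a replicate block, adjusted p = 0.759). The uridine-cytidine kinases Uck1 and Uck2 averaged 114 and 88.0 CPM and 48.0 and 49.4 CPM.

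Of the 13 genes of deoxynucleotide supply and clean-up, Rrm1, Rrm2 and Tyms had all old libraries below all young ones, and none of the 13 passed. With Ppat and Umps these made 5 members with old below young, 10.6% of those tested against 5.18% of all tested genes. Rrm2, the small subunit of ribonucleotide reductase that appears in S phase, had 29.4, 164 and 88.7 CPM in old and 341, 278, 200.2 and 317 CPM in young libraries. The old libraries spread 5.58-fold and the young 1.70-fold (log2 fold change -1.59 ± 0.50, adjusted p = 0.298 in edgeR and 0.0338 in DESeq2). Without old 2 the log2 fold change of Rrm2 was -2.29 (adjusted p = 0.172). Rrm1, the large subunit, had 83.4, 307 and 272 CPM in old and 464, 329, 559 and 562 CPM in young libraries, with old 2 close to young 2 (log2 fold change -1.12 ± 0.42, adjusted p = 0.402). The promoters of both are among those printed above.

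Tyms, thymidylate synthase, makes dTMP from dUMP. It had 84.8, 129.7 and 59.7 CPM in old and 183, 302, 163 and 180.4 CPM in young libraries, and young 2 stood above the other young ones (log2 fold change -1.18 ± 0.34, adjusted p = 0.244 in edgeR and 0.0307 in DESeq2). Tk1, the S phase thymidine kinase of the cytosol, had 38.8, 128 and 43.7 CPM in old and 119, 299.8, 166 and 206 CPM in young libraries, with old 2 above young 1 (log2 fold change -1.49 ± 0.49, adjusted p = 0.323). Without old 2 the value of Tk1 was -2.28 (adjusted p = 0.134). Its mitochondrial paralogue Tk2 averaged 68.6 ± 9.74 and 72.7 ± 10.7 CPM (log2 fold change -0.08). Dguok, the mitochondrial deoxyguanosine kinase, had 473, 272 and 326 CPM in old and 199, 288, 186 and 234 CPM in young libraries, with old 2 below young 2 (log2 fold change 0.66 ± 0.26, adjusted p = 0.436).

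Cell division genes lay alongside these values. The summed level of 18 such genes, among them Mki67, Top2a, Cdk1 and the Mcm helicase subunits, was 832, 1764 and 983 CPM in the old libraries and 3175 to 5148 CPM in the young. All 18 had a negative log2 fold change, where 51.5% of all tested genes did. At an unadjusted p under 0.05 there were 15, against 4.49% of all tested genes, and 13 were without overlap, against 5.18%. None passed in edgeR, and 13 did in DESeq2, which called 2.61% of the genes it adjusted lower. Old 2 was the highest old library in this sum and also in Rrm1, Rrm2, Tyms and Tk1. Among the young libraries, Tyms and Tk1 did not follow the sum, which was lowest in young 2, where both were highest. Rrm1 was lowest in young 2 as well (329 CPM). Rrm2 was lowest in young 3 (200.2 CPM), which had the highest sum. The part of cell division in the values of these 4 genes was not tested.

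**Figure D4:**
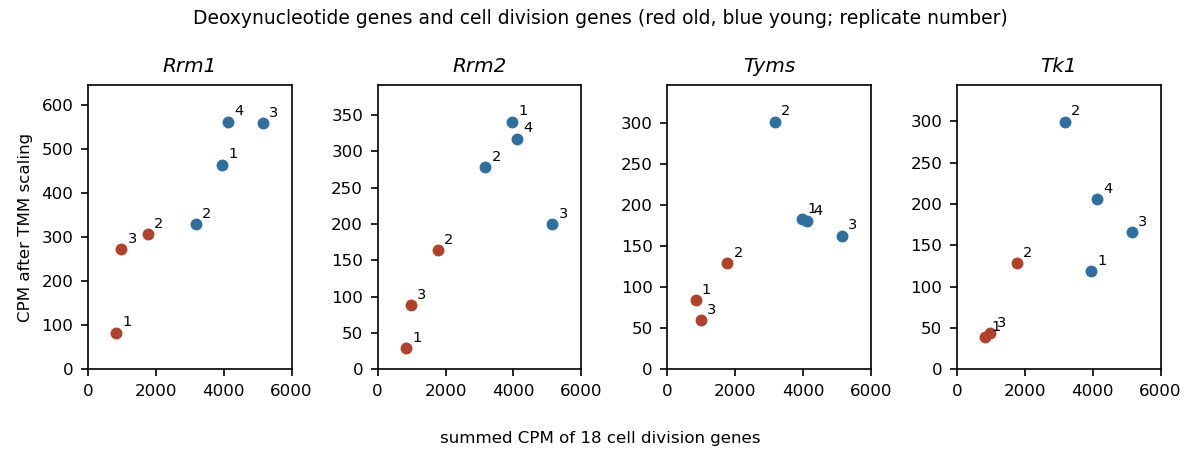
CPM of Rrm1, Rrm2, Tyms and Tk1 against the summed CPM of 18 cell division genes in each library (red old, blue young; numbers are replicates). Old libraries lie at sums of 832 to 1764 CPM and young ones at 3175 to 5148 CPM, and old 2 is the highest old library in each panel.

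The groups overlapped in the other deoxynucleotide genes. Dtymk, thymidylate kinase, averaged 186 ± 3.69 and 195 ± 38.9 CPM, Dctd, dCMP deaminase, 251 ± 2.73 and 243 ± 99.3 CPM, and Dut, which removes dUTP, 187 ± 40.9 and 247 ± 52.2 CPM. Dck, deoxycytidine kinase, averaged 68.2 and 82.1 CPM, and Samhd1, a dNTP hydrolase, 102 and 134 CPM. Nudt1, which clears oxidised purine nucleotides, averaged 50.4 and 44.7 CPM. Rrm2b, the p53-inducible small subunit that serves cells outside S phase, had 12.1, 20.6 and 64.2 CPM in old and 7.71, 0, 4.44 and 20.8 CPM in young libraries. Its groups overlapped (log2 fold change 1.97 ± 1.53, adjusted p = 0.857), and a count of 0 in young 2 allowed a level of up to 0.137 CPM, the worth of 3 counts. Per kilobase, Rrm2 exceeded Rrm2b by 2.87 to 16.6 times in old libraries and by 31.7 to 93.7 times in the young libraries where Rrm2b was counted.

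Nme1 and Nme2, the nucleoside diphosphate kinases that pass phosphate to all nucleoside diphosphates, averaged 580 ± 59.9 and 738 ± 310.3 CPM (Nme1) and 126 ± 35.2 and 95.8 ± 26.3 CPM (Nme2). Neither passed (adjusted p of 0.893 and 0.880). Their sequences are closely similar and a readthrough gene spans both, covering 48.9% of the exon bases of Nme2, so the split between them is uncertain. Of the pair of PRPP synthetases, Prps1 exceeded Prps2 per kilobase by 5.39 to 54.9 times in old and 6.09 to 11.5 times in young libraries, and old 1 alone lay above the young range. Impdh2 exceeded Impdh1 by 18.5 to 50.7 times in old and by 4.36 to 33.6 times in young libraries.

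**Figure D5:**
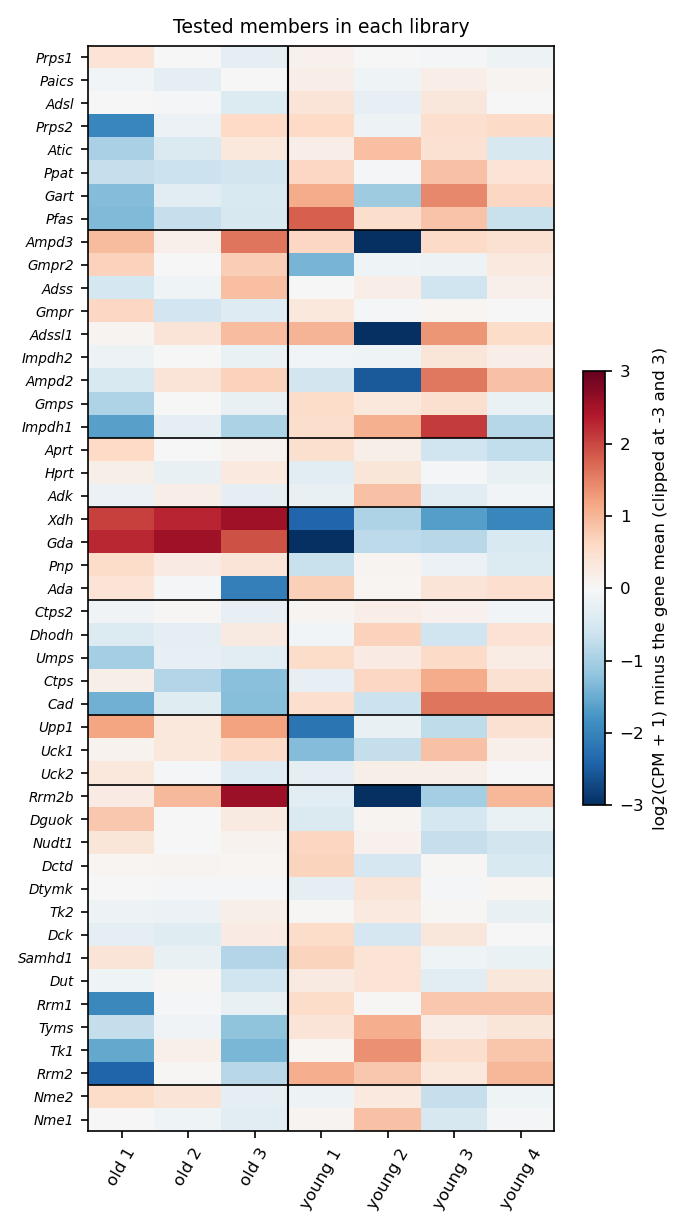
Log2(CPM + 1) of each tested gene minus its mean over the 7 libraries, with colours clipped at -3 and 3 and lines between the roles. Xdh and Gda are high in the 3 old libraries, and young 2 is low for Ampd3, Adssl1, Ampd2 and Rrm2b.

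Of 54 genes of nucleotide kinases, nucleotidases, transporters, pyrimidine breakdown, PRPP regulation and the molybdenum cofactor, 40 were tested and none passed in edgeR. DESeq2 called Nt5c3 higher, and Slc29a1 and Lacc1 lower, where it called 2.45% and 2.61% of the genes it adjusted. At an unadjusted p under 0.05, 2 of the 40 had a positive and 2 a negative log2 fold change. Of all tested genes 4.62% and 4.49% did so, and thus these numbers were near the background. Nt5c3, a pyrimidine 5′-nucleotidase, had 1575, 1124 and 1364 CPM in old and 467, 1032, 526 and 785 CPM in young libraries, without overlap (log2 fold change 0.95, adjusted p = 0.290). Slc29a1, the equilibrative nucleoside transporter, had 133, 178 and 132 CPM in old and 232, 221, 308 and 242 CPM in young libraries, also without overlap (-0.76, adjusted p = 0.279). Lacc1, a purine nucleoside enzyme of macrophages, was not counted in young 1 or any old library and had 9.23 to 15.9 CPM in the other young ones, at least 91.4-fold lower in old against a floor of 3 counts per library (adjusted p = 0.298). Mocs2 was the other gene with a positive value. Pyrimidine breakdown genes were scarce, with Dpyd, Dpys and Upb1 at 0 in all libraries.

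The libraries held 22203806 to 32401925 counts each. A count of 0 in a library allowed 0.0929 to 0.137 CPM, and this limit covers counting error only. On the first principal component (27.7% of the variance) the old libraries lay at -69.0 to -38.4 and young 2, 3 and 4 at 8.89 to 19.8. Young 1 stood apart on it at 129, and young 2 stood apart on the second (22.2%). Without both young 1 and young 2 Xdh still passed (adjusted p = 0.0224). Stem cell markers were present: all 11 listed were tested, Procr, Slamf1, Kit and Ly6a among them, and their sum was 3667 to 4346 CPM in old and 1595 to 2660 CPM in young libraries. Procr, an HSC surface marker, passed as higher in old HSCs (log2 fold change 2.74, adjusted p = 0.00643).

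Markers of other cell types were read beside the Xdh result, and their part in it was not tested. Of the neutrophil and monocyte list 3 of 10 genes were tested, and the sum was 1424 to 2199 CPM in old and 858 to 1425 CPM in young libraries. Prtn3, a granule protease, passed as higher in old HSCs, with 772, 546 and 617 CPM against 98.4 to 206 CPM (4.27-fold, adjusted p = 0.0242). Mpo went the other way, with 0 CPM in every old library and 24.6, 7.90, 0 and 0 CPM in the young. It was not tested in edgeR, and DESeq2 called it lower (adjusted p = 1.13e-09). That call rests on counts in young 1 and young 2 alone. Its log2 fold change of -24.3 has no old count behind it and is not a measure of size. S100a8 had a negative log2 fold change (-2.44) and Lyz2 a positive one (0.40), and neither passed. Ctsg and Ltf of that list had no count in any library. The T and NK cell list summed to 214 to 273 CPM in old and 65.4 to 382 CPM in young libraries. In it Klrb1c had 109 to 238 CPM in old and 0 to 12.2 CPM in young libraries and did not pass (adjusted p = 0.324). Nkg7, the other gene tested, went the other way, with means of 70.8 CPM in old and 184 CPM in young libraries. Its groups overlapped (log2 fold change -1.38, adjusted p = 0.605). Cd3e, Cd8a, Gzmb and Ncr1 were at 0. The macrophage and dendritic list summed to 215 to 2089 CPM in old and 187 to 761 CPM in young libraries. Its highest sum was that of old 1, with 1477 CPM of Cd74 and 587 CPM of H2-Ab1. Cd68, C1qa and C1qb had negative log2 fold changes. Their means were 14.2, 0 and 1.49 CPM in old and 39.7, 4.86 and 16.1 CPM in young libraries. None of them passed in edgeR, and DESeq2 called C1qa lower (adjusted p = 0.0278). Cd68 was counted in every library, and Csf1r, Marco and Itgax in none.

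The mast cell and basophil list had 20.2 to 66.8 CPM in old and 0 to 10.4 CPM in young libraries, with 4 of 6 genes at 0 throughout (Mcpt8, Prss34, Ms4a2 and Mcpt4). The erythroid list had 11.1 to 49.4 CPM in old and 71.6 to 110 CPM in young libraries, with 5 of 9 at 0, Hba-a1 and Hbb-b1 among them. The endothelial and stromal list had 102 to 156 and 68.8 to 141 CPM. In it Emcn had 76.6 to 113 CPM in old and 51.0 to 70.4 CPM in young libraries, without overlap (adjusted p = 0.524). Pecam1 was counted in every library, but in young 1 at 0.131 CPM, the worth of 3 counts. Lepr was counted in none. The sums of the megakaryocyte list (164 to 363 and 303 to 551 CPM) and the B cell list (73.4 to 192 and 122 to 185 CPM, with Ebf1, Pax5 and Igll1 at 0) overlapped between the groups. In the megakaryocyte list, Itga2b had 4.95 to 10.9 CPM in old and 9.41 to 76.5 CPM in young libraries (log2 fold change -2.73). It did not pass in edgeR (adjusted p = 0.290), and DESeq2 called it lower (adjusted p = 0.00956). Gp9 went the other way, with 88.2 to 91.5 CPM in old and 71.3 to 82.5 CPM in young libraries, without overlap (edgeR adjusted p = 0.528).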

How the data were processed

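Bulk RNA-seq of sorted HSCs was analysed in 7 libraries, 3 old and 4 young, grouped by their labels. Per the labels' protocols, cDNA was made with Smart-seq+ and libraries with Nextera XT, a kit without strand marking. According to the submitters' processing notes, Trimmomatic, FastQC, STAR and featureCounts were used on mm9. For these tools, the sources used here give neither version nor setting. The deposited values are raw read counts per gene, neither scaled nor pooled as far as they show. Amplification copies are included, since no molecular identifiers are stated.

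The edgeR package (4.0.16, under R 4.3.3) was used for the test, with filterByExpr (minimum count 10, minimum total 15), TMM scaling, and the 2-sided quasi-likelihood F test with group as the only term, with Benjamini-Hochberg adjustment over all tested genes. Standard errors were obtained from the fitted difference and its F statistic (difference over root F). DESeq2 1.42.0, limma 3.58.1 (voom), other scalings and filters, a replicate block and the omission of single libraries were alternatives. Members given in full are those with an unadjusted p under 0.05 or groups without overlap. Transcript lengths (longest coding transcript) and exon overlaps came from GENCODE M21 (GRCm38), with all 49 symbols matched. The members and lists were chosen with earlier results of these data known. Levels per kilobase were compared between genes only within these lengths.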

Additional observations from a re-analysis of the deposited data

Results flagged for a closer look

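In 3 of the 47 tested members, 1 of the 4 young libraries lay far from the others, by more than Dixon's critical value for the gap over the range, and in all 3 it was young 2. Ampd3 had 0.0457 CPM there and 28.7 to 32.2 CPM in young 1, 3 and 4. Adk had 521 CPM against 222 to 267 CPM, and Tyms 302 CPM against 163 to 183 CPM. Chance alone flags about 1 in 20 groups if the values are normally distributed, which was not checked for CPM. The share over all tested genes was not counted, so 3 of 47 cannot be set against a background.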

How the results depend on the processing

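The log2 fold change of Xdh stayed positive in all 17 alternatives (3.86 to 4.42) and passed in 14. It did not pass without old 1 (4.17, adjusted p = 0.0590), without old 3 (3.92, adjusted p = 0.0784) or with the replicate block (4.08, adjusted p = 0.313). Over the fits without 1 library it ranged from 3.86 to 4.42, with adjusted p from 0.00536 to 0.0784. The replicate block left 0 members called higher and called no gene of the table. Same-numbered libraries deviated from their group means with correlations of 0.0191, -0.0990 and 0.0158, and not every library correlated best with its own number, so the numbers were not taken as pairs.

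Of all genes, 27 were called higher and 2 lower in the fit reported, against 286 and 305 with DESeq2, 79 and 51 among genes with at least 50 CPM, 49 and 1 with limma-voom, 15 and 1 with library size alone, and 2 to 16 higher without 1 library. Members called higher numbered 2 with DESeq2 and 0 to 2 without 1 library. Members called lower numbered 5 with DESeq2 and 0 in every other fit. No member given in full changed the sign of its log2 fold change in any alternative run, but without both young 1 and young 2 the value of Pfas was -1.09 and that of Cad -2.72. Cad gave no value with a mean of at least 50 CPM, which leaves it out. The median log2 fold change of the members, -0.22, was -0.30 with library size alone, -0.31 among genes with at least 50 CPM, -0.13 without both young 1 and young 2 (chosen after seeing the data) and -0.25 to -0.15 without 1 library. The median of all genes was -0.12 with library size alone. The causes of these shifts were not tested.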
